A study of Mus musculus with 12 samples.

Results

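The CLCA genes encode the chloride channel regulators, calcium-activated family, and 4 of them, Clca1, Clca2, Clca4a and Clca4b, were followed through 12 mouse colon libraries. They are 4 of the 54532 genes in the deposited table and were found by their Ensembl identifiers. Clca4b was chosen with earlier results of the same libraries known, and its relatives were taken for their family membership. The sources used here do not name the comparison behind that choice, which is taken to be HFD+DSS against HFD. The values of all 4 genes in that comparison are therefore given as a description, with no test. RNA came from the colon of wild-type C57BL/6J mice in 4 groups of 3 samples each. The groups were a high-fat diet with 2% dextran sulfate sodium (HFD+DSS), a diet labelled CD with 2% dextran sulfate sodium (CD+DSS), the high-fat diet alone (HFD) and the CD diet alone (CD). The labels do not spell out CD, and the age of the mice is not given in the sources used here. Dextran sulfate sodium (DSS) is a polysaccharide that injures the colonic epithelium of rodents and is used to provoke colitis.

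Despite the family name, CLCA proteins are not themselves chloride channels. They are made as precursors that cleave themselves through a metalloprotease domain, and human CLCA1 acts from outside the cell on the calcium-activated chloride channel TMEM16A, which the gene Ano1 encodes in the mouse. In the intestine Clca1 is a product of goblet cells, which secrete it with the mucus. Clca4a and Clca4b are mouse counterparts of human CLCA4, a gene of the intestinal epithelium, and human CLCA2 is known from stratified epithelia such as the skin.

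The 4 genes lie side by side on the minus strand of chromosome 3 (build mm10, equal to GRCm38). Clca4b (ENSMUSG00000074195) spans bases 144910921 to 144932529 and Clca4a (ENSMUSG00000068547) spans 144952480 to 144975045, with 19950 bases between them. Clca1 (ENSMUSG00000028255) follows at 145003817 to 145032776, and Clca2 (ENSMUSG00000036960) at 145070263 to 145099443. With Clca3a1, Clca3a2, Clca3b and the transcribed pseudogene Clca4c-ps they form a cluster of 8 Clca genes over 369767 bases. The transcripts of all 4 members have 14 exons.

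Clca4a and Clca4b are near copies, and how far their reads can be told apart bears on every value of both. Their transcripts matched at 95.6% of 2996 aligned bases. Their coding sequences are 2775 bases each and differ at 110 of them. Of all 50-base stretches of the Clca4a transcript, 20.9% occur unchanged in Clca4b, and of all 100-base stretches 5.96% do. How the authors' counting placed reads that fit both copies is not given in the sources used here, so the levels of the pair are uncertain to that extent. The following stretches of 120 coding bases (coding bases 2652 to 2771, sense strand, 5′ to 3′) show the window in which the copies differ most, with the 13 differing bases in capitals.
Clca4a: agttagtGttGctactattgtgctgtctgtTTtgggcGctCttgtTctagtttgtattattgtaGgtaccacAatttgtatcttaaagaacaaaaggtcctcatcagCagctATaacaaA
Clca4b: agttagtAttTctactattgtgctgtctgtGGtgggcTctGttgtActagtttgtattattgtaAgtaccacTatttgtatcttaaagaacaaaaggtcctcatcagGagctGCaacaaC
Fragments from such a window carry the identity of their gene. The longest run that both copies share, 168 coding bases without a difference (coding bases 1279 to 1446), is printed next because a fragment lying wholly inside it could come from either gene.
Clca4a and Clca4b, shared run: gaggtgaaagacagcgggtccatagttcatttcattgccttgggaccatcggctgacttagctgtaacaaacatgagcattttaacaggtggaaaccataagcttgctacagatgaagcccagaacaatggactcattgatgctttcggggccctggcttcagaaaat
Over all 120-base windows of the coding sequence the median was 4 differences, and 3.05% of the windows had none. The other members are far apart: Clca1 matched Clca4a at 65.8%, Clca4b at 65.2% and Clca2 at 60% of aligned bases, and shared no 50-base stretch with any of them.

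The results turn most on Clca4b. The promoter window of Clca4b (RefSeq, GRCm38.p6, chr3:144932480-144932779, minus strand, from 250 bases before the start to 50 after it) is shown with matches to 3 searched motifs in capitals. The motifs were TTTATG, a motif of the intestinal CDX factors, TATAAA, which reads TTTATA on the opposite strand, and TATATA.
Clca4b promoter: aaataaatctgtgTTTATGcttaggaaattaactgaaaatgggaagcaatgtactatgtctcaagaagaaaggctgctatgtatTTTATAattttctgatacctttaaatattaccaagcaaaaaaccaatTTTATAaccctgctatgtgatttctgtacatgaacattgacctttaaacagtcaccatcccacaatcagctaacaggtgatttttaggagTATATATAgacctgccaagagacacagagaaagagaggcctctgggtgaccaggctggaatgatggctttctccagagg
The 2 matches to TATATA overlap each other, 29 to 22 bases before the start. Both strands were searched, and of 32851 such windows in the genome 5.67% hold TATATA, 13.6% hold TATAAA and 11.9% hold TTTATG. The window of Clca4b holds no match to the STAT motif TTCNNNGAA (8.3% of windows), the STAT6 motif (6.95%), the AP-1 motif TGANTCA (7.81%), the NF-kappaB motif (0.411%) or the HNF4 motif CAAAGTCCA (0.475%). These matches are letters in a window and were not tested as binding sites.

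The libraries held 14657800 to 17932300 recovered fragments over genes and between 21814 and 23236 genes above 0. Values are FPKM, fragments scaled by exon length and library size, so levels of different genes can be set side by side per length. Whether samples of 1 group were separate animals is not said in the labels, so p-values measure the spread between these samples, which may be technical. A gene was tested where 3 or more of the 12 libraries reached 1 FPKM, which kept 14179 genes. Clca1, Clca4a and Clca4b were among them and Clca2 was not. HFD+DSS replicates 1 and 3 stood apart from the other libraries on a principal component each. The posterior Hox genes, which mark the distal colon, differed between libraries: Hoxa13, Hoxb13 and Hoxd13 together reached 46.6 to 92.8 FPKM in HFD+DSS, 1.62 to 40.5 in CD+DSS, 7.04 to 34.8 in HFD and 38.3 to 111 in CD. Their part in the results that follow was not tested beyond the Hox-adjusted values given with them. In bulk samples fewer cells of a type cannot be told apart from less RNA per cell.

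Clca4b had 1251, 251 and 167 FPKM in the 3 HFD+DSS libraries, against 3.56, 2.27 and 7.16 FPKM in the HFD libraries. The lowest HFD+DSS library lay far above the highest HFD library, and the HFD+DSS libraries differed among themselves, with replicate 1 well above the others. Mean levels were 556 ± 603 FPKM in HFD+DSS and 4.33 ± 2.53 FPKM in HFD (SD, n = 3 each). The difference was 6.24 ± 0.72 on the log2(FPKM + 1) scale (SE), and this is the comparison taken to have singled the gene out. Behind these values stood 57168, 13370 and 9552 fragments in HFD+DSS and 170, 120 and 329 in HFD.

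Under the CD diet Clca4b had 111, 108 and 175 FPKM in CD+DSS, against 2.78, 17.1 and 5.32 FPKM in CD. Again no library of one group reached the other, and here it was the CD group, with its replicate 2, that was uneven. The means were 131 ± 37.9 FPKM in CD+DSS and 8.40 ± 7.63 FPKM in CD (SD, n = 3 each), a ratio of means of 15.6. This comparison shares no library with the one taken to have singled Clca4b out, although all groups share 1 estimate of the spread. If the choice also drew on the CD+DSS and CD libraries, the p-values given here are not free of it. The difference was 4.09 ± 0.72 on the log2(FPKM + 1) scale (SE, 95% interval 2.51 to 5.67), and limma's Benjamini-Hochberg adjusted p over all genes tested was 0.0632, which missed the threshold of 0.05. Without HFD+DSS replicate 1 the same difference had a limma adjusted p of 0.0260, and limma voom on recovered fragments gave 4.35 ± 0.70 (SE) with an adjusted p of 0.0455. With the posterior Hox level as a covariate it was 4.65 ± 0.97 (SE), with a limma adjusted p of 0.625. A fit of the CD+DSS and CD libraries alone gave 4.09 ± 0.54 (SE) with a limma adjusted p of 0.0900, and a fit with no filter gave an adjusted p of 0.145. The limma adjusted p ranged from 0.0260 to 0.625 over all alternatives.

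In CD+DSS against CD 0 of the 3 members tested were called by limma, voom called Clca4b alone, and 2 of 3, Clca4b and Clca1, had an unadjusted p under 0.05. Over all genes 0.0846% were called and 15.2% had an unadjusted p under 0.05. Clca4b was higher in every CD+DSS library than in any CD library, as were 13.7% of all genes tested, so a lack of overlap was common. In HFD+DSS against HFD, 0.339% of all genes were called and 13.6% had an unadjusted p under 0.05. No count of members is set beside these shares, because Clca4b was taken as chosen by that comparison. In that comparison 8.82% of all genes were higher in every HFD+DSS library than in any HFD library.

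The order of Clca4b levels by group mean was HFD+DSS, CD+DSS, CD and HFD. Neighbours in this order overlapped at both ends: the HFD+DSS libraries (167 to 1251 FPKM) overlapped the CD+DSS libraries (108 to 175 FPKM), and the HFD libraries (2.27 to 7.16 FPKM) overlapped the CD libraries (2.78 to 17.1 FPKM). Only the step between CD+DSS and CD showed no overlap. HFD+DSS against CD+DSS differed by 1.54 ± 0.72 on the log2(FPKM + 1) scale (SE, 95% interval -0.035 to 3.12, limma adjusted p = 0.749), and by 0.68 without HFD+DSS replicate 1. None of the 3 members tested had groups without overlap there, against 9.46% of all genes. HFD against CD differed by -0.61 ± 0.72 (SE, limma adjusted p = 1). The DSS effect under HFD exceeded that under CD by 2.15 ± 1.02 (SE, 95% interval -0.079 to 4.39, limma adjusted p = 0.939). That value was 1.29 without HFD+DSS replicate 1, 1.52 without CD replicate 2 and 1.10 with the posterior Hox covariate, and no difference between diets in the response to DSS passed the test. The diet comparisons and this interaction use libraries of the comparison taken to have singled the gene out.

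**Figure D1:**
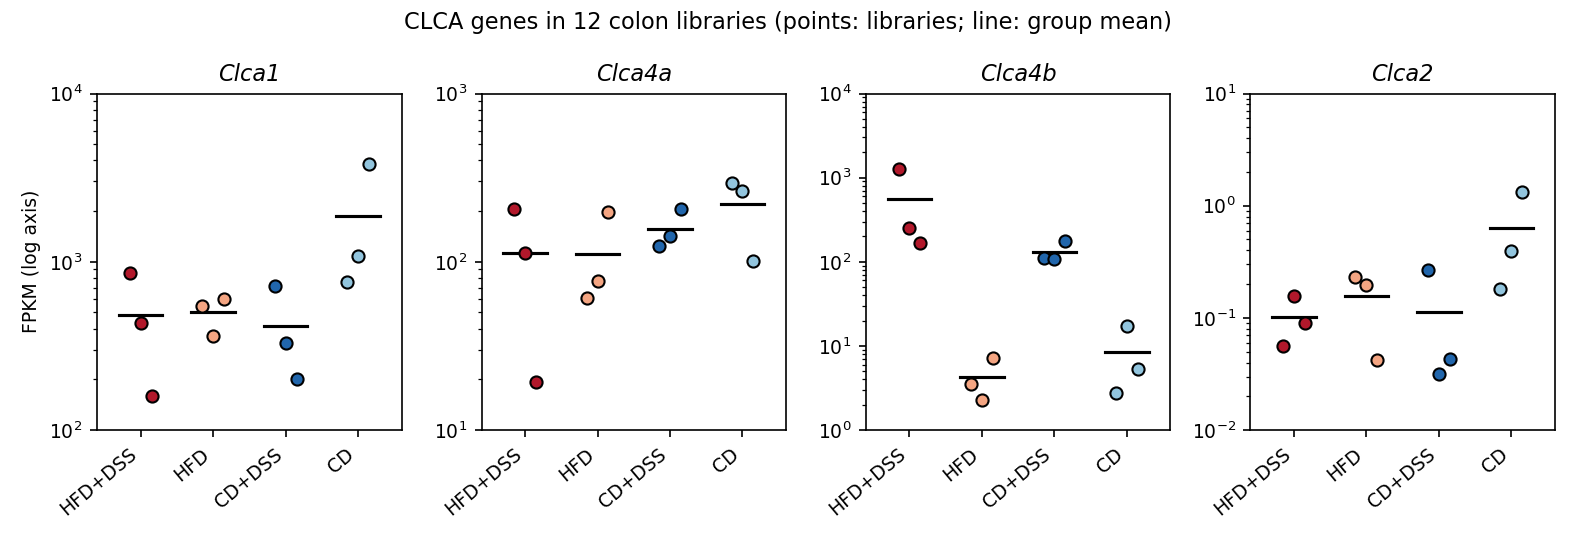
FPKM of Clca1, Clca4a, Clca4b and Clca2 (log axes, 1 panel a gene) in each library of HFD+DSS, HFD, CD+DSS and CD, with a line at each group mean (n = 3). Clca4b lies at 108 FPKM or more in all 6 DSS libraries and at 17.1 FPKM or less in the other 6, while the panels of Clca1 and Clca4a show overlapping DSS and non-DSS libraries under HFD.

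Within each library Clca4b can also be placed among all genes. By FPKM its rank was 29, 154 and 242 in HFD+DSS, against 9103, 10819 and 6262 in HFD. It was at rank 426, 560 and 223 in CD+DSS, against 9909, 3102 and 7525 in CD. In the DSS libraries it thus stood among the most abundant transcripts of the colon. The summed level of 14 pan-epithelial genes, such as Epcam and Krt8, was 5625 to 6553 FPKM in HFD+DSS, 6378 to 9947 in CD+DSS, 4320 to 6396 in HFD and 5103 to 5857 in CD. All 3 CD+DSS libraries were above all 3 CD libraries in this sum, and the HFD+DSS libraries overlapped the HFD libraries. The part of epithelial content in the level of Clca4b was not tested.

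Clca4a, the near copy, had 206, 112 and 19.3 FPKM in HFD+DSS, against 61.0, 76.7 and 197 FPKM in HFD. It had 124, 142 and 205 FPKM in CD+DSS, against 295, 264 and 102 FPKM in CD. The groups overlapped in each of these comparisons, and HFD+DSS replicate 3 was the lowest library of all. Clca4a differed by -0.33 ± 0.75 (SE) on the log2(FPKM + 1) scale in HFD+DSS against HFD, a value that turned to 0.64 without HFD+DSS replicate 3. Leaving out HFD replicate 3 gave 0.17, and leaving out HFD+DSS replicate 1 gave -1.04. In CD+DSS against CD it differed by -0.38 ± 0.75 (SE, 95% interval -2.03 to 1.28, limma adjusted p = 0.833). The interval leaves room for a change of several fold in the downward direction and excludes one as large as that measured for Clca4b. HFD+DSS against CD+DSS gave -0.98 ± 0.75 (SE, limma adjusted p = 0.836), or -0.011 without HFD+DSS replicate 3 and -1.69 without HFD+DSS replicate 1. HFD against CD gave -1.03 ± 0.75 (SE, limma adjusted p = 1), and the interaction was 0.043 ± 1.06 (SE, limma adjusted p = 1.00).

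Because the copies differed in this way, the share of Clca4b in the pair's summed FPKM was computed, a measure chosen after the values had been seen and given without a test. Clca4b made up 85.8%, 69.1% and 89.7% of the pair in HFD+DSS and 5.51%, 2.87% and 3.51% in HFD. It made up 47.2%, 43.2% and 46.0% in CD+DSS and 0.933%, 6.07% and 4.98% in CD. All 6 DSS libraries were above all 6 others, and all 3 HFD+DSS libraries were above all 3 CD+DSS libraries. The order of the 2 DSS groups rests on Clca4a as well as on Clca4b. HFD+DSS replicate 3, with the highest share, had Clca4a at 19.3 FPKM, the lowest of all libraries. Its Clca4b, at 167 FPKM, was below the 175 FPKM of CD+DSS replicate 3. The means were 81.5% ± 10.9 in HFD+DSS, 45.5% ± 2.03 in CD+DSS, 3.97% ± 1.38 in HFD and 4.00% ± 2.71 in CD (SD, n = 3 each). The share compares the copies inside a library, so a scaling of the whole library cancels. It is still exposed to reads placed on the wrong copy. The summed FPKM of the pair averaged 669 ± 688 in HFD+DSS, 288 ± 79.9 in CD+DSS, 116 ± 76.6 in HFD and 229 ± 106 in CD (SD, n = 3 each).

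**Figure D2:**
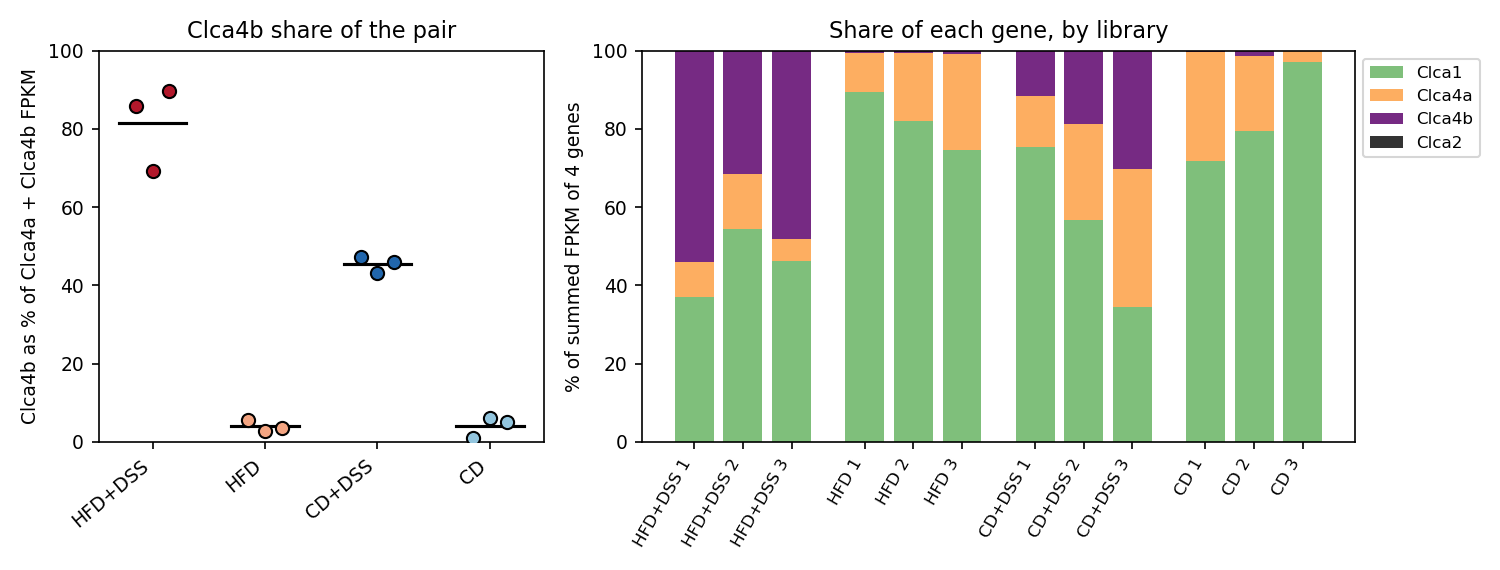
Left, Clca4b as a percentage of the summed FPKM of Clca4a and Clca4b in each library, with group means as lines. Right, the percentage of the summed FPKM of the 4 genes that each gene made up, by library; Clca4b took a mean of 44.5% in HFD+DSS, 0.662% in HFD, 20.1% in CD+DSS and 0.549% in CD, and Clca2 is too low to be visible.

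Clca4c-ps, a pseudogene next to Clca4b, is the third close copy in the cluster. Its sequence matched Clca4a at 95.3% and Clca4b at 94.5% of aligned bases. The longest run it shared was 343 bases with Clca4a and 117 bases with Clca4b. Of all 50-base stretches, 23.6% of those of Clca4a and 11.3% of those of Clca4b occur unchanged in it. Reads that fit the pseudogene and a member thus bear on Clca4a more than on Clca4b. It had 322, 8 and 11 recovered fragments in HFD+DSS, against 1, 0 and 0 in HFD, and 1, 9 and 15 in CD+DSS, against 4, 1 and 3 in CD. Its FPKM was 0.0175% to 0.556% of that of Clca4b in the 6 DSS libraries. The pseudogene was highest in HFD+DSS replicate 1, the library with the most Clca4b.

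Clca1, the goblet cell member, was the most abundant of the 4 genes in the libraries without DSS. It had 723, 328 and 201 FPKM in CD+DSS, against 763, 1087 and 3795 FPKM in CD. The groups did not overlap, but the highest CD+DSS library came close to the lowest CD library, and CD replicate 3 stood far above the rest. The means were 417 ± 272 FPKM in CD+DSS and 1881 ± 1665 FPKM in CD (SD, n = 3 each). The difference was -2.01 ± 0.70 on the log2(FPKM + 1) scale (SE, 95% interval -3.55 to -0.47, unadjusted p = 0.0150, limma adjusted p = 0.233). It was -1.33 ± 0.67 without CD replicate 3, and -1.92 ± 0.98 (SE, limma adjusted p = 0.935) with the posterior Hox covariate. Of all genes tested, 10.4% were lower in every CD+DSS library than in any CD library.

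Under HFD the 3 DSS libraries of Clca1 had 861, 435 and 160 FPKM, against 549, 360 and 602 FPKM in HFD. The HFD libraries lay inside the range of the HFD+DSS libraries, and the difference was -0.33 ± 0.70 on the log2(FPKM + 1) scale (SE). It turned to 0.31 without HFD+DSS replicate 3. HFD alone was lower than CD in every library (means of 504 ± 127 FPKM in HFD and 1881 ± 1665 FPKM in CD, SD, n = 3 each), as were 5.02% of all genes tested. That difference was -1.57 ± 0.70 (SE, limma adjusted p = 1), or -0.89 ± 0.67 without CD replicate 3. No gene at all was called in HFD against CD by limma or voom (0% called, 588 genes at an unadjusted p under 0.05). HFD+DSS against CD+DSS differed by 0.11 ± 0.70 (SE, limma adjusted p = 0.992), or by -0.46 without HFD+DSS replicate 1, -0.31 without CD+DSS replicate 3 and 0.75 without HFD+DSS replicate 3. The interaction was 1.68 ± 0.99 (SE, limma adjusted p = 1.00), or 1.00 without CD replicate 3 and 2.33 without HFD+DSS replicate 3. In these contrasts too 0% of genes were called by limma or voom, with 938 genes at an unadjusted p under 0.05 in HFD+DSS against CD+DSS and 769 in the interaction.

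Goblet cell markers were read beside Clca1. Of 20 such genes, 0 were called by limma or voom in CD+DSS against CD, where 3 had an unadjusted p under 0.05, against 15.2% of all genes, and the median log2 difference was 0.095, against 0.012 over all genes. In HFD+DSS against HFD 0 of 20 were called by limma or voom, 8 had an unadjusted p under 0.05, against 13.6% of all genes, and the median was -0.30, against 0.0069 over all genes. Muc2, the main gel-forming mucin of the colon, averaged 357 ± 48.8 FPKM in HFD+DSS, 936 ± 304 in CD+DSS, 695 ± 106 in HFD and 796 ± 300 in CD (SD, n = 3 each). The list was mixed in HFD+DSS against HFD, with 13 negative and 7 positive differences. Muc2 differed by -0.96 ± 0.31 there and Guca2a by -1.10 ± 0.33, against 1.03 ± 0.52 for Zg16 and 0.99 ± 0.43 for Tff3 (SE). In HFD against CD 19 of the 20 differences were negative, with a median of -0.27, against -0.016 over all genes. There 2 had an unadjusted p under 0.05 (4.15% of all genes). In HFD+DSS against CD+DSS 16 of 20 were negative, with a median of -0.67, against -0.026 over all genes. There 11 had an unadjusted p under 0.05 (6.62% of all genes). In both, 0 were called by limma or voom. The summed level of the 20 genes was 4150 to 6936 FPKM in HFD+DSS, 5701 to 9305 in CD+DSS, 5328 to 6821 in HFD and 5843 to 9820 in CD, ranges that overlap throughout. Their part in the levels of Clca1 was not tested.

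Clca2 was close to the detection limit. It had 4, 13 and 8 recovered fragments in HFD+DSS, 21, 2 and 3 in CD+DSS, 17, 16 and 3 in HFD, and 14, 29 and 102 in CD. Its level was 0.032 to 0.397 FPKM in 11 libraries and 1.32 FPKM in CD replicate 3, the one library above 1 FPKM. In a fit of all genes without the filter, Clca2 differed by -0.50 ± 0.20 on the log2(FPKM + 1) scale in CD+DSS against CD (SE, limma adjusted p = 0.466). HFD against CD gave -0.44 ± 0.20 (SE, limma adjusted p = 1), and both rest largely on CD replicate 3.

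Some keratins of stratified epithelium, chosen after their values were seen, were also highest in that library. In CD replicate 3 Krt15 was at 17.4 FPKM, against 0.503 or less in the other 11 libraries. Krt4 was at 6.10 FPKM there, against 0.0895 or less elsewhere, and Krt5 at 3.09 FPKM, against 0.203 or less elsewhere. Trp63, a defining regulator of stratified epithelium, was at 0.129 FPKM there and at 0 in 7 of the other libraries. Of the whole list of 20 stratified epithelium genes, 5 were highest in CD replicate 3 (these 4 and Krt14) and the others were not. Krt13 was at 0.329 FPKM there, against 0 to 0.340 elsewhere, Krt16 at 0.0383, against 0 to 0.667, and Dsc3 at 0.0333, against 0.0232 to 0.497. Krt6a, Dsg1a, Sprr1b, Sprr3 and Ivl were at 0 in CD replicate 3, the last 3 of them in every library. Of the 20 genes 4 passed the filter and 0 were called by limma or voom in any comparison. Its summed level, to which Sprr2a1 and Sfn, both on in every group, gave the most, was 474 to 784 FPKM in HFD+DSS, 468 to 896 in CD+DSS, 270 to 412 in HFD and 324 to 372 in CD. The part of such epithelium in the Clca2 and Clca1 values of CD replicate 3 was not tested.

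**Figure D3:**
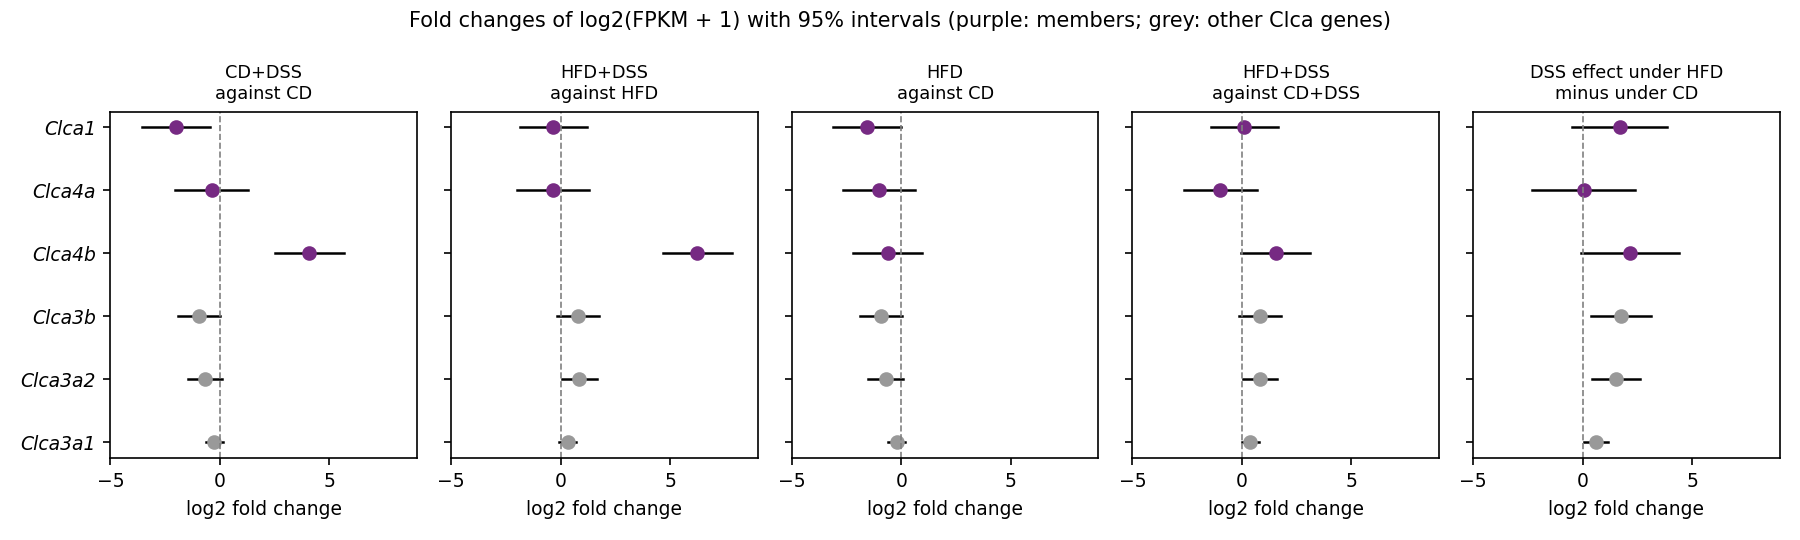
Difference of log2(FPKM + 1) with its 95% interval from the limma fit over 12 libraries, for the 3 members tested (purple) and 3 other Clca genes (grey), in 4 comparisons and the interaction. Clca4b is at 4.09 in CD+DSS against CD and 6.24 in HFD+DSS against HFD (a description), while Clca4a is close to 0 in both.

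The remaining genes of the cluster, Clca3b, Clca3a2 and Clca3a1, shared the pattern of Clca4b in part. Unlike Clca4b, their means were lower in CD+DSS than in CD. Like Clca4b, but by smaller differences, their means were higher in HFD+DSS than in HFD. Clca3b had 229, 122 and 69.3 FPKM in HFD+DSS, 85.3, 36.2 and 113 FPKM in CD+DSS, 66.2, 69.7 and 79.1 FPKM in HFD, and 161, 144 and 112 FPKM in CD. Clca3a2 and Clca3a1 stayed low, with group means of 1.74 to 4.53 FPKM for Clca3a2 and 1.31 to 2.08 FPKM for Clca3a1. In CD+DSS against CD, 0 of these 3 genes were called by limma or voom and 0 had an unadjusted p under 0.05 (15.2% of all genes). All 3 differences were negative, with Clca3b at -0.96 ± 0.44 (SE, limma adjusted p = 0.333). In HFD+DSS against HFD 0 of 3 were called by limma or voom and 1 had an unadjusted p under 0.05 (13.6% of all genes). All 3 differences were positive, with Clca3b at 0.80 ± 0.44 (SE). Of the 3, only Clca3a2 was higher in every HFD+DSS library than in any HFD library, as were 8.82% of all genes tested. The interaction for Clca3b was 1.75 ± 0.63 (SE, limma adjusted p = 0.802). All 3 genes had an unadjusted limma p under 0.05 in the interaction (5.42% of all genes), and 0 were called by limma or voom. Across the 12 libraries the Pearson correlation of log2(FPKM + 1) was -0.028 between Clca4a and Clca4b, and 0.659 once group means were removed. With group means removed, Clca4b correlated at 0.599 with Clca3b, 0.646 with Clca3a2 and 0.426 with Clca3a1. Between Clca1 and Clca2 the correlation across the 12 libraries was 0.813, where the high CD replicate 3 weighs heavily. These correlations are descriptions over 12 libraries that share their groups.

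The chloride and anion transport genes that CLCA proteins are placed beside were taken as a list of 24, of which 20 were tested. In CD+DSS against CD 0 were called by limma or voom, 9 had an unadjusted p under 0.05 (15.2% of all genes), 16 of 20 differences were negative and the median was -0.29, against 0.012 over all genes. In HFD+DSS against HFD 0 were called by limma or voom, 5 had an unadjusted p under 0.05 (13.6% of all genes) and the median was -0.13. Ano1, the calcium-activated chloride channel, averaged 12.8 ± 7.29 FPKM in HFD+DSS, 8.20 ± 2.42 in CD+DSS, 11.5 ± 0.43 in HFD and 27.3 ± 5.60 in CD (SD, n = 3 each). Its difference in CD+DSS against CD was -1.63 ± 0.35 (SE, limma adjusted p = 0.0923). Cftr, the cyclic AMP-regulated chloride channel, averaged 13.3 ± 3.53 FPKM in HFD+DSS, 17.0 ± 2.10 in CD+DSS, 22.1 ± 3.85 in HFD and 24.3 ± 7.66 in CD (SD, n = 3 each). Slc12a2, which loads chloride into the cell across its basolateral side, averaged 45.2 ± 9.44 FPKM in HFD+DSS, 50.8 ± 16.4 in CD+DSS, 83.1 ± 10.9 in HFD and 83.7 ± 10.3 in CD (SD, n = 3 each). Its log2 difference with DSS was -0.88 ± 0.24 under HFD and -0.75 ± 0.24 under CD (SE, limma adjusted p of 0.161 under HFD and 0.201 under CD), and neither passed the test. In CD+DSS against CD 4 of the 20 differences were positive. Clic1, the most abundant gene of the list, differed by 0.61 ± 0.16 there and by 0.41 ± 0.16 in HFD+DSS against HFD (SE, limma adjusted p of 0.141 and 0.294). Clcn2 differed by 0.56 ± 0.21 in CD+DSS against CD (SE, limma adjusted p = 0.266).

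Genes that respond to STAT3 and interleukin 22, a cytokine that acts on the gut epithelium, were the list with the most calls. Of 20 genes 19 were tested. In HFD+DSS against HFD, where limma called 0.339% of all genes, 5 rose (Reg3g, Socs3, Stat3, Lrg1 and Nos2). There 6 were called by voom, and 16 had an unadjusted limma p under 0.05 (13.6% of all genes). The median was 2.06, against 0.0069 over all genes. With CD+DSS against CD, where limma called 0.0846% of all genes, 3 rose (Reg3g, Socs3 and Saa3). There 2 were called by voom, and 14 had an unadjusted limma p under 0.05 (15.2% of all genes). The median was 1.48, against 0.012 over all genes. Socs3, a feedback inhibitor of STAT3 signalling, averaged 36.6 ± 10.7 FPKM in HFD+DSS and 4.84 ± 0.86 in HFD (SD, n = 3 each). Under the other diet it averaged 30.2 ± 8.14 FPKM in CD+DSS, against 4.52 ± 1.80 in CD (SD, n = 3 each). Its differences were 2.66 ± 0.30 (SE, limma adjusted p = 0.00842) under HFD and 2.52 ± 0.30 (SE, limma adjusted p = 0.0209) under CD. In the diet comparisons and the interaction 0 genes of this list were called by limma or voom. Several of these genes were known from earlier results of these data when the list was drawn up. Clca4b is no member of the list.

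Of the interleukin 4 and 13 response genes, a programme in which goblet cell products such as Clca1 rise in the airway, 14 of 20 were tested. In CD+DSS against CD, where limma called 0.0846% of all genes, a single gene of the list rose, by limma and by voom. It was Il4ra, a receptor subunit for both cytokines, which averaged 24.7 ± 1.12 FPKM in CD+DSS and 9.91 ± 2.44 in CD (SD, n = 3 each, limma adjusted p = 0.0398). The list's median there was 0.14, and 5 had an unadjusted p under 0.05, against 15.2% of all genes. Its median was -0.30 in HFD+DSS against HFD, where 0 were called by limma or voom and 6 had an unadjusted p under 0.05, against 13.6% of all genes. The diet comparisons and the interaction called 0 of its genes by limma or voom. The 12 other lists had 0 genes called by limma or voom in every comparison, with 0 to 11 genes of a list at an unadjusted p under 0.05. Over all genes that share was 4.15% to 15.2%, by comparison. In HFD against CD 8 of 10 adipocyte genes tested had such a p (4.15% of all genes), and all 10 differences were positive, with a median of 1.71. In CD+DSS against CD 8 of 14 pan-epithelial genes did (15.2% of all genes), and all 14 differences were positive. Among these 12 lists, the median log2 difference in CD+DSS against CD was 0.23 for 20 absorptive colonocyte genes and -0.11 for 15 sodium and water absorption genes. It was 0.57 for 14 pan-epithelial genes and 1.07 for the 4 neutrophil genes that passed the filter, of a list of 12. For 14 smooth muscle genes it was -0.49, for 12 endothelial genes -0.031, for 10 adipocyte genes 0.14 and for the 3 posterior Hox genes -2.06. In HFD+DSS against HFD the medians were -0.020 for absorptive colonocyte, 0.20 for sodium and water absorption, 0.18 for pan-epithelial and 2.28 for neutrophil genes. There they were 0.36 for smooth muscle, -0.27 for endothelial, -1.19 for adipocyte and 2.18 for posterior Hox genes. A gene high only in DSS libraries could pass the filter and one low everywhere could not. The 2 neutrophil medians may therefore lean upward and cannot be set beside those of lists tested in full. The summed level of all 12 neutrophil genes was 101 to 596 FPKM in HFD+DSS, 39.8 to 108 in CD+DSS, 3.415 to 59.8 in HFD and 23.8 to 166 in CD.

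Genes whose pattern over the 12 libraries was most like that of each member were ranked by the Pearson correlation of log2(FPKM + 1) among 7457 genes, as a description. The 5 nearest to Clca4b were Ptk6 (r = 0.98), Mfsd2a (0.97), Nos2 (0.96), Socs3 (0.96) and Pglyrp1 (0.95). Ptk6 encodes a tyrosine kinase of epithelial cells, Mfsd2a a lysophospholipid transporter, Nos2 the inducible nitric oxide synthase and Pglyrp1 a peptidoglycan recognition protein. Ptk6 had 23.8, 16.7 and 13.8 FPKM in HFD+DSS, 10.4, 12.6 and 13.0 FPKM in CD+DSS, 4.03, 3.75 and 4.88 FPKM in HFD, and 2.36, 6.64 and 3.90 FPKM in CD. It repeats details of Clca4b inside groups, with HFD+DSS replicate 1 highest and CD replicate 2 highest of its group, and its correlation with Clca4b was 0.91 once group means were removed. The others were lower by that measure, at 0.82 for Mfsd2a, 0.73 for Nos2, 0.67 for Socs3 and 0.75 for Pglyrp1. Without the 2 libraries in which Clca4b was farthest from its median, HFD replicate 2 and HFD+DSS replicate 1, the correlation with Ptk6 was 0.98. The libraries that remained still held both sides of the split by DSS, so this value could hardly fall.

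The 5 nearest to Clca1 were 2 immunoglobulin segments, Igkj3 (r = 0.86) and Ighv1-7 (0.85), the sialyltransferase gene St3gal4 (0.82), the mucus protein gene Fcgbp (0.80) and the actin-severing protein gene Scin (0.78). Without CD replicate 3 and HFD+DSS replicate 3 the correlation was 0.68 for Fcgbp and 0.29 for Scin. Those nearest to Clca4a were Scyl2 (0.96), Eloa (0.95), Atp11b (0.95), Gskip (0.94) and Sec24a (0.94), of which Sec24a encodes a coat protein of transport out of the endoplasmic reticulum and Atp11b a lipid flippase. For Clca2 they were Pla2g4c (0.90), Ighv5-6 (0.87), Igkv12-44 (0.86), Itln1 (0.85) and Igkv4-53 (0.85). The correlation of Clca2 with Pla2g4c was 0.17 without its 2 most distant libraries, so it rested on them. No gene appeared among the 5 nearest of more than 1 member.

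**Figure D4:**
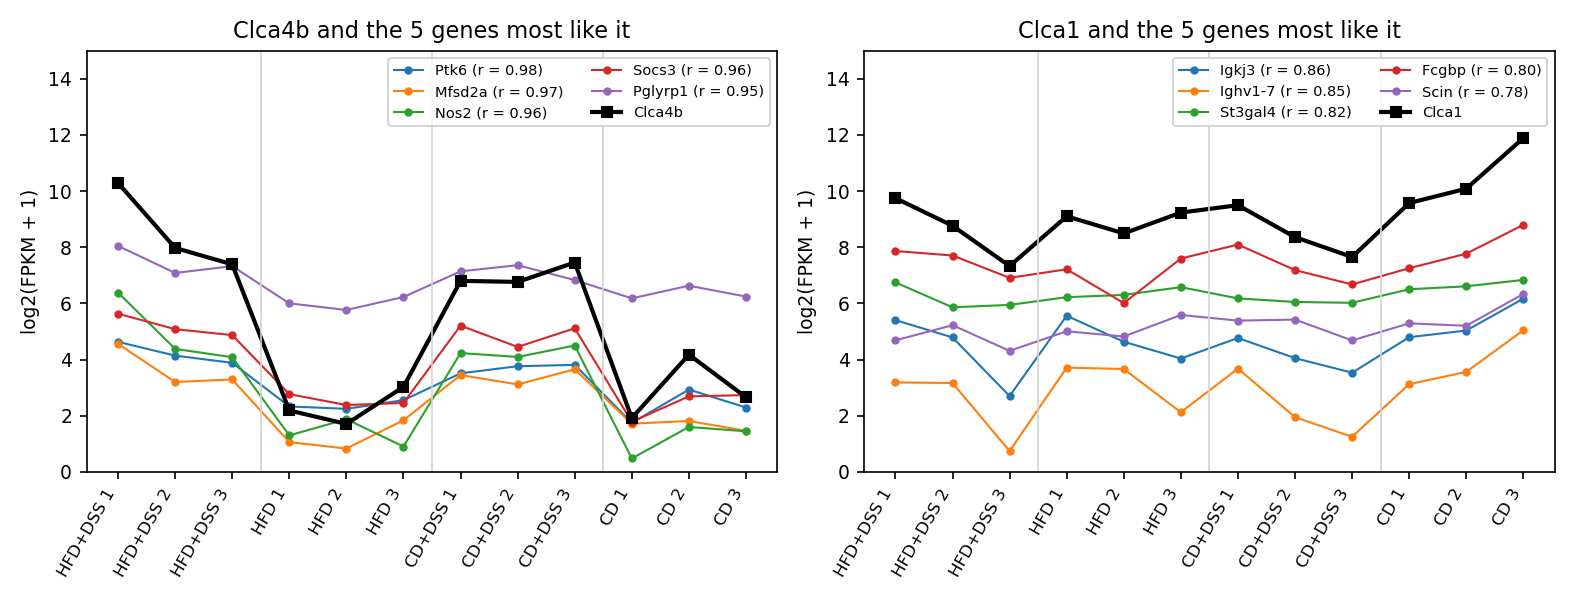
log2(FPKM + 1) in each of the 12 libraries for Clca4b (left, black) and Clca1 (right, black) and the 5 genes with the highest Pearson correlation to each. The lines of the left panel are high in the 6 DSS libraries and low in the other 6, and on the right Clca1 and most of its neighbours are highest in CD replicate 3.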

How the data were processed

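The authors deposited 1 table of FPKM values for 12 libraries; per the labels' protocols, total RNA came from RNeasy mini plus columns and went into a SMARTER mRNA-Seq kit. The build was mm10, per the submitters' processing notes; the aligner and counting tool were not given in the sources. Column names matched the sample labels. Symbols came from GENCODE M21 (54495 of 54532 identifiers). FPKM times exon length gave fragments, whole within 0.1 for 97.0% to 97.2% of values.

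Values were analysed as log2(FPKM + 1), which understates changes of low genes, with limma 3.58.1 under R 4.3.3 (a mean per group, contrasts, moderated variances with a trend). A gene was called where its Benjamini-Hochberg adjusted p was below 0.05, and the script was tested on simulated data. The median of all genes moved by under 0.1 when libraries were scaled to equal sums. Transcript and promoter sequences came from the mm10 annotation and RefSeq; RefSeq's promoter table gave 2 of the 4 members, and Clca1 and Clca4a were not used there.

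The members, the 14 gene lists and the rules were chosen with earlier results of these data known. Named were the 4 members, the other Clca genes, called list genes and the 5 genes most like each member (mean FPKM 5 or more, no predicted genes). The rule also took the 2 most abundant genes of each list, most of which are not printed because no member's result turns on them. Other named genes, such as the keratins, Ano1, Cftr and Muc2, were chosen after their values were seen. Alternatives were another pseudocount, no filter, equal-sum scaling, a replicate block, a posterior Hox covariate, each comparison's groups alone, each library left out and limma voom. Count tests with edgeR or DESeq2 were not run, since the deposited values are FPKM.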

Additional observations from a re-analysis of the deposited data

How the results depend on the processing

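Under 20 alternatives 225 of 237 values of the tested member results kept their direction, and 56 of 60 in HFD+DSS against HFD, where no side of a threshold was assessed. Many of these values could not change, so the counts do not measure stability. No filter, the replicate block and each comparison's groups alone leave a log2 difference as it was. So does leaving out a library of a group outside the comparison. In CD+DSS against CD, Clca4b passed the threshold without HFD+DSS replicate 1 (4.09), without HFD+DSS replicates 1 and 3 (4.09, adjusted p = 0.0306) and by voom (4.35), the last 2 chosen after seeing the data, and ranged from 3.59 to 4.72 with each library left out. Leaving out 1 library at a time gave -0.46 to 0.75 for Clca1 in HFD+DSS against CD+DSS, -1.11 to 0.019 for Clca4b in HFD against CD, -0.90 to 0.31 for Clca1 and -1.04 to 0.64 for Clca4a in HFD+DSS against HFD and -0.66 to 1.02 for the interaction of Clca4a, which was -0.50 with the posterior Hox covariate. Clca4a in HFD+DSS against HFD was 0.20 without HFD+DSS replicates 1 and 3. Genes called in CD+DSS against CD and in HFD+DSS against HFD were 12 and 48, against 5 and 10 with no filter, 0 and 1 with the Hox covariate, 0 and 12 with each comparison's groups alone and 26 and 0 without HFD+DSS replicates 1 and 3. With no filter 2 were called in HFD+DSS against CD+DSS and 1 in the interaction. With each library left out, the counts ranged from 0 (without HFD replicate 2 or CD replicate 1) to 36 (without CD replicate 3) in CD+DSS against CD, from 1 (without HFD replicate 2) to 78 (without HFD+DSS replicate 2) in HFD+DSS against HFD, 0 to 2 in HFD against CD, 0 to 1 in HFD+DSS against CD+DSS and 0 to 3 in the interaction. The cause of these shifts was not tested. Same-numbered libraries of different groups correlated at -0.462 to 0.204 in their deviations from the group means, over 0.1 in 3 of 18 pairs. Of the 12 libraries 0 correlated best with their own number, so no pairing by number was seen. With deviations from means of 3 libraries this check cannot show that there was none. The replicate block moved the counts to 2 and 12, and Clca4b in CD+DSS against CD to 4.09 ± 0.79 (SE, limma adjusted p = 0.161). The planned edgeR and DESeq2 fits were not run on FPKM. Depth limits Clca2, at 2 to 102 fragments a library, and not the other members.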
